A study of Schizosaccharomyces pombe with 8 samples.

Results

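The genes described here encode the proteins of the large subunit of the cytosolic ribosome of fission yeast, Schizosaccharomyces pombe. They were chosen by name: every gene row whose symbol, matched through its systematic identifier, is rpl followed by a digit. This gave 76 of 7022 gene rows, together with the 40 of 5361 intron rows that lie inside them. The 76 genes belong to 43 protein families, of which 12 have a lone gene, 29 have 2 paralogs and 2 have 3 paralogs. Introns were listed in 37 of the genes, 34 with 1 and 3 with 2 (rpl22, rpl3801 and rpl3802), and 39 genes had none.

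The large subunit joins amino acids in its peptidyl transferase centre and passes the growing chain out through the exit tunnel, and its proteins fold and brace the ribosomal RNA around both. Names of the form uL mark large-subunit proteins with counterparts in all domains of life, and names of the form eL mark those absent from bacteria. In fission yeast, ribosomal protein genes are among the most heavily transcribed, many families keep paralogs, and many of the promoters carry a HomolD box, which takes the place of a TATA box.

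Poly-A RNA from 2 libraries of a wild-type strain (OHI246, h- leu1-32 ura4-D18 ade6-M210) was set against 2 libraries of cwf10-ΔNTE (OHI408, h-, with cwf10 2-127-delta beside ura4-D18, leu1-32 and ade6-M21X), both cultured in yeast extract at 25 °C. Cwf10 is the fission yeast Snu114, a GTPase of the spliceosome, and the mutant protein lacks residues 2 to 127. The labels describe replicates as grown together and then handled apart, so p-values measure the spread between these libraries, which may be technical. The comparison shows how rpl RNA and the splicing of rpl introns differ between the strains.

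Reads on gene rows came to 40857033 and 42802817 for wild type, against 36186264 and 42593150 for the mutant, and an rpl row held between 1713 and 120634 reads. Reads across the junction of cwf10 intron 1 numbered 98 and 85 in wild type, against 0 and 0 in the mutant, and those of intron 3 numbered 82, 98, 84 and 99, while the log2 change of all reads on the cwf10 row, -0.03, missed the threshold. ura4, deleted in both strains, had 0 reads in all 4 libraries. Of the other marker genes, ade6 was higher in the mutant (0.30) and leu1 lower (-0.06). Of the markers of M cells, the mating type of h- strains, 4 of 5 were lower in the mutant (mfm2 by -3.05, mfm1 by -1.12, mam1 by -0.53 and mam2 by -0.28 on the log2 scale, with mfm3 at 0.04). Of 3 markers of P cells, map2 (-0.23) and map3 (-0.17) were lower and map4 (0.69) was higher. Over all gene rows tested, 38.5% were lower and 39.6% higher in the mutant. The part of mating type genes in the results below was not tested.

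All 76 rpl genes fell in cwf10-ΔNTE and 0 rose. Their median log2 change was -0.42, 74.7% of wild type for the median gene, and they ranged from 54.0% (rpl102) to 89.7% (rpl44). The largest adjusted p among them was 4.88e-06 (edgeR quasi-likelihood test, Benjamini-Hochberg over 6536 gene rows). Many other rows moved too: of the rows tested, 38.5% were lower and 39.6% higher, with a median log2 change of 0.01. In reads scaled to the TMM-adjusted library total (CPM), the higher mutant library was still under the lower wild-type one for 76 of the 76 rpl genes, against 43.4% of all tested rows.

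Most rpl genes fell by a similar amount. The log2 change lay between -0.5 and -0.3 for 51 genes, under -0.5 for 17 and above -0.3 for 8. With the paralogs of a family summed, the 43 families ran from -0.59 (rpl35) to -0.16 (rpl44), with a median of -0.43 on the log2 scale. That 43 of 43 were lower in the mutant follows from the fall of every gene. Together the rpl rows took 7.30% and 7.44% of gene reads in wild type, against 5.92% and 5.79% in the mutant. Mean shares were 7.37% ± 0.098 (SD, n = 2) and, for cwf10-ΔNTE, 5.86% ± 0.088 (SD, n = 2), a ratio of 0.795. The strains did not overlap, and the exact two-sided permutation p of 0.33 is the smallest that 2 against 2 libraries can give. In bulk RNA scaled to library totals, less rpl RNA per cell and more of other RNA cannot be told apart, nor can fewer cells of a kind and less RNA per cell.

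**Figure D1:**
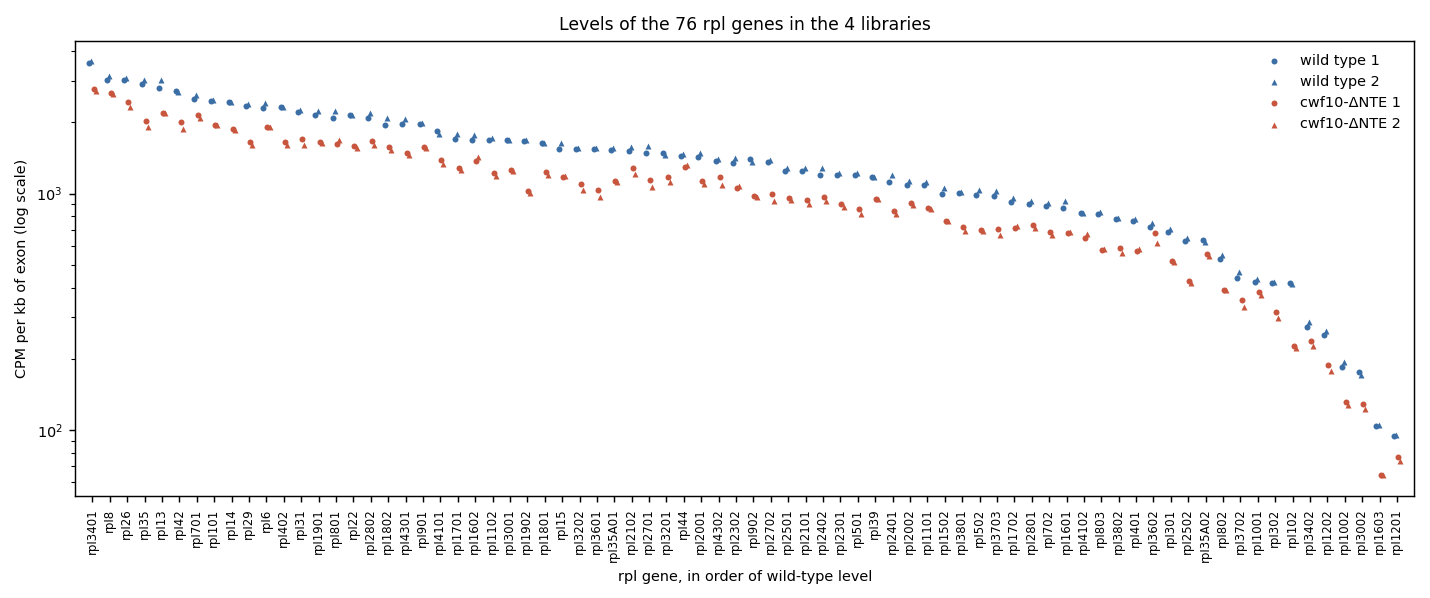
CPM per kb of exon (vertical axis, log scale) of the 76 rpl genes, ordered by their wild-type mean, with wild-type libraries in blue and cwf10-ΔNTE libraries in red. Both red points lie below both blue points for every one of the 76 genes, at levels that run from rpl3401 at 3592 to rpl1201 at 94.6 CPM per kb in wild type.

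The rpl genes stood near the top of the transcriptome in level. Of the 200 gene rows with the most CPM per kb of exon in wild type, 61 were rpl genes. rpl3401, for eL34, had the highest level, with a wild-type mean of 3592 and a mutant mean of 2746 CPM per kb, followed by rpl8 (3089 and 2652), rpl26 (3051 and 2389), rpl35 (2974 and 1973) and rpl13 (2922 and 2187). The lowest levels were those of rpl1201 (94.6 and 75.1), rpl1603 (104 and 64.4) and rpl3002 (174 and 126 CPM per kb). The rpl1603 row spans 2668 exon bases, against 723 and 801 for its paralogs rpl1601 and rpl1602, and overlaps SPBC2G2.06c. The level per kb of rpl1603 depends on that length, so its place among the lowest is uncertain. The rpl1201 row shares much sequence with another place in the genome, so its read count is uncertain too. The level did not order the changes: Spearman's rho between the wild-type level per kb and the log2 change was 0.11 over the 76 genes, a description across genes of the same libraries.

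As all 76 rpl genes fell, so did every group of members by place in the ribosome. The 4 genes of the 5S particle, in which uL18 and uL5 hold the 5S ribosomal RNA, had a median log2 change of -0.51. rpl501, for uL18, went from 1161 and 1190 CPM in wild type to 834 and 799 in the mutant. Its paralog rpl502 went from 971 and 1013 to 685 and 683, and the 2 uL5 genes were at -0.49 (rpl1102) and -0.36 (rpl1101). In each gene of the 5S particle, as in all 76 rpl genes, the lowest wild-type library was above the highest mutant library.

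Around the peptidyl transferase centre, uL3 and uL2 reach in with long extensions. The 5 genes for these proteins had a median log2 change of -0.46, and their range was narrow, from -0.51 (rpl803) to -0.39 (rpl801). The uL3 genes rpl301 (-0.44) and rpl302 (-0.46) moved almost alike, though they share much sequence and the split of reads between them is uncertain. uL16, encoded by rpl1001 and rpl1002, joins the subunit late, in the cytoplasm, and its genes moved unequally, at -0.19 and -0.55.

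The wall of the exit tunnel is formed in part by uL4, uL22 and eL39, whose 5 genes had a median log2 change of -0.42. rpl402, for uL4, is the rpl row with the most reads in wild type, at 2897 and 2913 CPM in wild type, against 2069 and 2004 in the mutant. rpl39, for the small protein eL39, went from 626 and 623 to 504 and 505 CPM, a log2 change of -0.31. At the tunnel's mouth sit eL19, uL23, uL24, eL31 and uL29. Their 7 genes had a median of -0.44, with rpl1902 (-0.73), rpl2502 (-0.59) and rpl35 (-0.59) among the lowest of the 76 and rpl26 at -0.35.

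Proteins that form bridges to the small subunit, uL14, eL24, eL30 and eL41, are encoded by 8 genes, which lay between -0.48 (rpl2401) and -0.32 (rpl4102) with a median of -0.42. The base of the P stalk, where elongation factors dock, holds uL11, and its genes were at -0.50 (rpl1202) and -0.33 (rpl1201). The L1 stalk, which guides spent tRNA out of the ribosome, holds uL1, and its genes lay furthest apart, at -0.89 (rpl102) and -0.35 (rpl101). The other 41 rpl genes had a median of -0.41.

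rpl102 fell most of the 76. It went from 345 and 341 CPM in wild type to 187 and 183 in the mutant, a log2 change of -0.89 ± 0.02 (SE), with an edgeR adjusted p of 9.33e-23. The strains were far apart and the libraries of a strain differed little. rpl1902, for eL19, followed, from 1212 and 1230 to 745 and 732 CPM (-0.73 ± 0.03, edgeR adjusted p = 2.31e-19). rpl1603, the third uL13 gene, went from 276 and 279 to 172 and 171 CPM (-0.69 ± 0.02, edgeR adjusted p = 1.63e-20). The rpl102 row overlaps the non-coding row SPNCRNA.1578 and the rpl1603 row overlaps SPBC2G2.06c, so reads there may belong to either row. These 3 genes came from 3 families. As they are the lowest of the 76, that their paralogs fell less follows from the ranking.

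Next in order were rpl3601 (eL36, -0.63), rpl2502 (uL23, -0.59), rpl35 (uL29, -0.59), rpl1002 (uL16, -0.55), rpl3202 (eL32, -0.54), rpl29 (eL29, -0.54) and rpl3703 (eL37, -0.54). rpl35 and rpl29 have no paralog. rpl35, one of the 5 genes with the highest level, went from 1534 and 1588 to 1067 and 1005 CPM.

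The smallest change was that of rpl44, for eL28, with 713 and 728 CPM in wild type, against 643 and 651 in the mutant (-0.16 ± 0.02, edgeR adjusted p = 2.65e-06). rpl3602, for eL36, went from 379 and 393 to 357 and 326 CPM (-0.18 ± 0.03, edgeR adjusted p = 4.88e-06). In both genes the strains were still apart in CPM, with the lowest wild-type library above the highest mutant one. Close to them were rpl1001 (uL16, -0.19), rpl35A02 (eL33, -0.20) and rpl8 (eL8, -0.22), then rpl3402 (eL34, -0.27), rpl701 (uL30, -0.28), rpl4302 (eL43, -0.30), rpl2002 (eL20, -0.30) and rpl1602 (uL13, -0.30). Among the genes named here, the rows of rpl44, rpl35A02, rpl701, rpl4302 and rpl2002 overlap another gene row. That of rpl35A02 overlaps toc1, which rose by 0.21, and reads there may belong to either row. rpl8, the second highest in level, had 2662 and 2787 CPM in wild type, against 2359 and 2320 in the mutant.

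**Figure D2:**
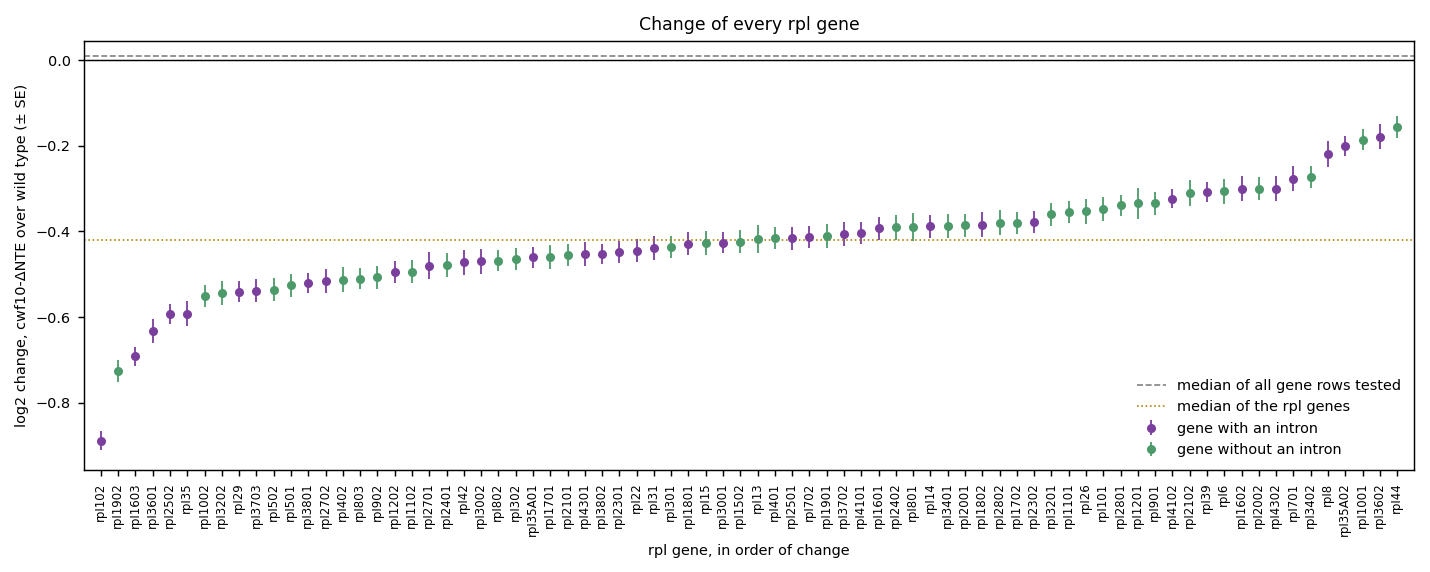
Log2 change of each of the 76 rpl genes (points, ± SE from edgeR), ordered from lowest to highest, purple for genes with an intron and green for genes without. Every point lies below 0, between -0.89 and -0.16, while the median of all gene rows tested is 0.01, and both colours are spread along the whole order.

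Limits of the rows themselves touch some members. Of the 76 rows, 27 overlap another gene row, and reads there may belong to either row. Among the 49 rows that overlap no other, 49 fell, with a median of -0.42. Sequence shared with another place in the genome matters for few: 20 rows hold any 50-base window found elsewhere, and 6 hold at least 10% of such windows (rpl1201 with 78.3%, rpl301 with 63.1%, rpl1202 with 57.5%, rpl302 with 53.4%, rpl1002 with 36.1% and rpl1001 with 28.3%). For those 6 the split of reads between paralogs is uncertain.

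Paralogs encode near-identical or closely similar forms of a protein, and the ratio of their reads shows how much of the family's RNA comes from each copy. Taking genes whose names differ in the last 2 digits gave 34 pairs in 30 families, with 66.1% to 99.6% identity in coding sequence and protein identity from 80.3% (rpl3001 and rpl3002) upward. The median pair moved its log2 ratio by 0.12 between strains, and the median SD between libraries of a strain was 0.03. For rpl15 and rpl1502, paralogs by sequence (99.5% identical in protein) that were added after the data were seen, the log2 ratio was 0.43, 0.42, 0.42 and 0.42 in wild type 1 and 2 and mutant 1 and 2.

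The largest shift was in the uL1 pair. rpl101 supplied 85.6% and 85.9% of the pair's reads in wild type, against 89.6% and 89.9% in the mutant, and the log2 ratio of rpl101 over rpl102 rose from 2.57 and 2.61 to 3.11 and 3.15. The strains differed by 0.54 and the libraries within them by 0.04 or less. The rpl102 row overlaps SPNCRNA.1578, as given above. rpl102 has an intron and rpl101 has none. The 2 proteins are 92.6% identical.

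In the eL36 pair the copies moved toward equal supply. rpl3601 gave 62.6% and 61.8% of the reads in wild type, against 54.4% and 54.8% in the mutant, a shift of -0.45 in the log2 ratio. In both uL13 pairs with rpl1603, that gene lost ground: rpl1602 over rpl1603 rose from 2.28 and 2.35 to 2.68 and 2.74, and rpl1601 over rpl1603 from 1.19 and 1.26 to 1.52 and 1.53. The rpl1603 row overlaps SPBC2G2.06c, as given above. All 3 uL13 genes and both eL36 genes have an intron.

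The uL16 pair, without introns, shifted by 0.36, with rpl1001 giving 74.1% and 73.9% of the reads in wild type, against 78.6% and 78.6% in the mutant. Its 2 proteins are 99.5% identical and the rows share sequence, as given above. The eL19 pair, also without introns and with almost no shared windows, shifted by 0.32, with rpl1901 over rpl1902 at 0.41 and 0.44 in wild type, against 0.74 and 0.74 in the mutant. In these 6 pairs, chosen for the size of their shift, the strains did not overlap. Each exact two-sided permutation p was 0.33, the smallest possible. The same held for every other pair of the 34 except the uL18, uL3 and eL27 pairs below. It held down to a shift of 0.04 (rpl2801 over rpl2802), so it does not set these 6 apart.

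At the other end, the strains overlapped in the pairs that moved least. rpl501 gave 54.5% and 54.0% of the uL18 pair in wild type, against 54.9% and 53.9% in the mutant (exact permutation p = 1). rpl301 gave 58.3% and 58.7% of the uL3 pair and then 58.5% and 59.5% (exact permutation p = 0.67). The uL3 rows share much sequence, as given above, so this split is uncertain. rpl2701 gave 54.4% and 55.8% of the eL27 pair and then 55.8% and 55.7% (exact permutation p = 1).

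**Figure D3:**
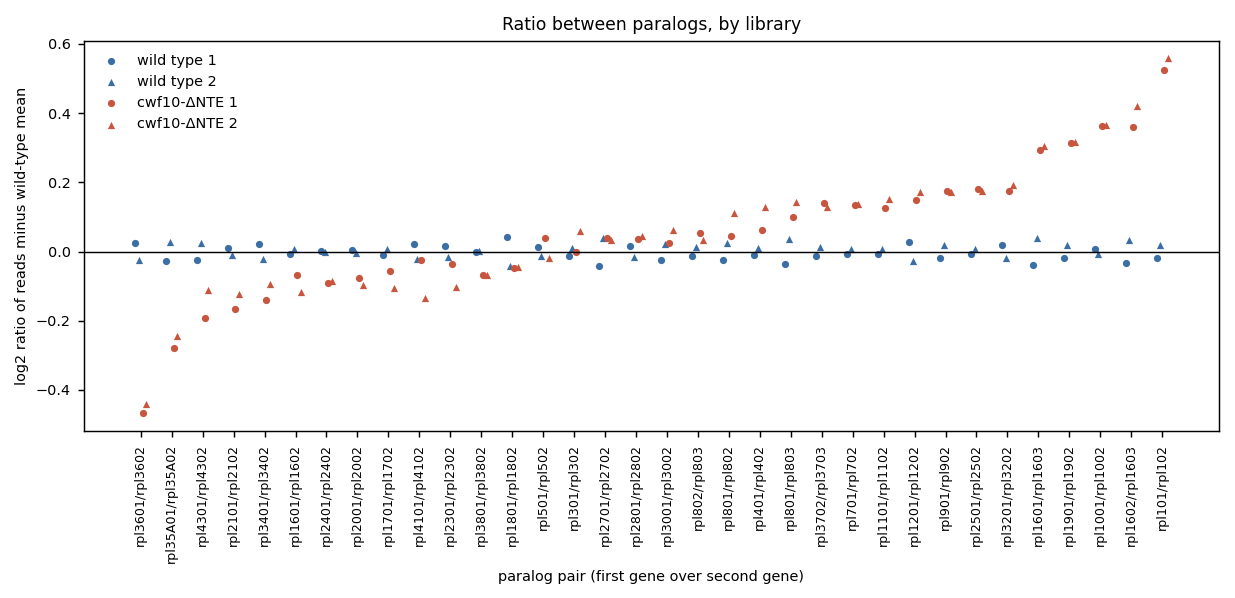
Log2 ratio of reads between the paralogs of 34 pairs (first gene over second), minus the pair's wild-type mean, with wild-type libraries in blue and cwf10-ΔNTE libraries in red. Blue points stay near 0, while red points run from -0.45 for rpl3601 over rpl3602 to 0.54 for rpl101 over rpl102 in their means.

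Genes with and without introns both fell. The median log2 change was -0.44 over the 37 genes with an intron and -0.41 over the 39 without. The log2 ratio of their summed reads was -0.459 and -0.467 in wild type, against -0.448 and -0.465 in the mutant. The strains overlapped, with a difference of 0.0065 (exact two-sided permutation p = 0.67). Its sign turned to -0.0016 without mutant library 1 and to -0.0287 when medians over genes were compared, and with rpl102 left out, a choice made after the data were seen, it was 0.011 (exact permutation p = 0.67). Among the rows that overlap no other, the ratio went from -0.783 and -0.782 to -0.742 and -0.755. There the strains did not overlap, with a difference of 0.034 (exact permutation p = 0.33, the smallest possible).

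The small-subunit genes fell in the same measure. Of 55 rps rows, 54 fell and 0 rose, while 1 did not pass, beside 38.5% lower and 39.6% higher over all gene rows tested. The rps median log2 change was -0.38, and the rps share of gene reads went from 5.89% and 5.98% to 4.79% and 4.68%. The log2 ratio of summed rpl over summed rps reads was 0.311 and 0.315 in wild type, against 0.306 and 0.307 in the mutant. The difference of -0.0061 is small beside the fall of either subunit's genes, and its exact permutation p was 0.33, the smallest possible.

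Because the rpl genes moved together, their promoters are shown for the 3 genes that fell most and the gene that fell least. Each sequence is the 120 bases before the start of the deposited row, 5′ to 3′ on the gene's strand, from the RefSeq genome ASM294v3. Capitals mark the 7 letters CAGTCAC of the HomolD box or their reverse complement GTGACTG, and the 8 letters ACCCTACC of the HomolE box or their reverse complement GGTAGGGT.
rpl102 (chrII:3060385-3060504, plus strand): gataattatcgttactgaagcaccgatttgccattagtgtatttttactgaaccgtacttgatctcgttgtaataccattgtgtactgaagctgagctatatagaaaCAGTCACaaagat
rpl1902 (chrIII:400601-400720, plus strand): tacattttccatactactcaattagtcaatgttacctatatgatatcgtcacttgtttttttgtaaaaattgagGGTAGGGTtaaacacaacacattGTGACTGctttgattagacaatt
rpl1603 (chrII:3443106-3443225, plus strand): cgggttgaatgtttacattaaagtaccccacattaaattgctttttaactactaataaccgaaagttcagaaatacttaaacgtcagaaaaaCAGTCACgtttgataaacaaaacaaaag
rpl44 (chrI:911721-911840, minus strand): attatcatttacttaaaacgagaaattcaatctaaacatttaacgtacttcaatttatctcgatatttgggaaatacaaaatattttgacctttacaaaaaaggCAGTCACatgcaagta

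All 4 of these promoters hold the 7-letter HomolD core, in either orientation. Searched on both strands from 250 bases before to 50 bases after the row start, CAGTCAC was found in 62 of 76 rpl promoters (81.6%), in 44 of 55 rps promoters and in 235 of 5103 coding promoters (4.61%). The longer form CAGTCACG was found in 17 rpl promoters (22.4%, against 1.20% of coding promoters) and CAGTCACA, a form added after the data were seen, in 44 (57.9%, against 2.49%). ACCCTACC was found in 19 rpl promoters (25.0%, against 1.61%), and 18 held both it and the HomolD core. Of the 66 matches to the HomolD core, 43 began within 60 bases before the row start. Genes with the core had a median log2 change of -0.42 and genes without it of -0.43, while the medians with and without CAGTCACG were -0.46 and -0.41, and those with and without CAGTCACA were -0.39 and -0.46. These differences were not tested.

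The 40 rpl introns were longer than most, with a median of 81 bases and a range from 44 (rpl2701) to 441 (rpl701), against a median of 56 over all introns. At the 5′ splice site 25 of 40 began GTAAGT (62.5%, against 27.3% of all introns) and 11 began GTATGT (27.5%, against 19.6%). At the 3′ end 37 of 40 ended TAG (92.5%, against 68.2%). The branch site letters CTAAC were found in 28 of 40 (70.0%, against 44.4%) and CTGAC in 3. The introns below are those of the uL13 trio, which sit after the same 41 coding bases and behaved differently, and of 3 genes with introns under 100 bases that were among the 10 with the largest change. Capitals mark the first 6 bases, the branch site letters and the last 3 bases, and for rpl39, whose intron lies in the 3′ UTR, the last 30 bases are given.
rpl1601 intron (chrII:623953-623998, minus strand): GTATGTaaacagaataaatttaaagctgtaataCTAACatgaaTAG
rpl1602 intron (chrI:4097375-4097429, plus strand): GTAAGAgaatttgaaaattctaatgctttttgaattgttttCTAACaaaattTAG
rpl1603 intron (chrII:3443308-3443365, plus strand): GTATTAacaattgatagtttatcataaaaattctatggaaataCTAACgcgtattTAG
rpl1202 intron (chrIII:627698-627792, minus strand): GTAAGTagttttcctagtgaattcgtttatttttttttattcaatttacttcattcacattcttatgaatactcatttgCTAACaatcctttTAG
rpl3001 intron (chrI:1973757-1973815, minus strand): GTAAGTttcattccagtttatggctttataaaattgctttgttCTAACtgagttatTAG
rpl39 intron, end (chrIII:1641213-1641242, plus strand): tgtggagtaactgttttCTAACtgagaTAG

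Most paralogous introns interrupt the same place in the coding sequence. The introns of rpl2301 and rpl2302 both follow 172 coding bases, those of rpl2501 and rpl2502 follow 98, those of rpl35A01 and rpl35A02 follow 209, those of rpl3601 and rpl3602 follow 222, those of rpl3702 and rpl3703 follow 235, and those of rpl4301 and rpl4302 follow 157. The offsets differ in the eL30 pair, at 239 bases in rpl3001 and 263 in rpl3002, and in the uL30 pair, at 129 in rpl701 and 126 in rpl702. Their lengths differ more, with 111 and 265 bases in the uL14 pair and 161 and 75 bases in the eL36 pair. In rpl1801, rpl1802, rpl3801, rpl3802 and rpl8 an intron directly follows the start codon, after 3 coding bases.

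Retention was measured as intron reads over the reads of the host gene, so that an equal fall of both does not count as a change. The ratio also rises where intron reads fall less than host reads. In rpl3601, intron reads went from 811 and 819 to 573 and 657, while the ratio rose by 0.23 on the log2 scale. In rpl39, intron reads themselves rose, from 3008 and 3175 to 5256 and 6060. By the ratio, 23 of the 40 rpl introns, in 21 genes, rose, 0 fell, and the other 17 did not pass. The median log2 change of the ratio was 0.26, while the level of the genes with an intron had a median change of -0.44. Over all introns tested, 47.1% rose and 0.298% fell, with a median of 0.81. Among the 30 rpl introns that overlap no gene row but their host, 16 rose and the median was 0.17. Summed over the rpl genes with introns, intron reads per 1000 host reads went from 20.4 and 19.8 to 28.0 and 27.8, 1.39 times wild type. Without rpl39, left out after the data were seen, they went from 18.4 and 17.8 to 22.7 and 22.4, a rise of 4.44 in the mean in place of 7.76. Over the other introns the mean went from 10.9 ± 0.0974 to 19.2 ± 0.0970 (SD, n = 2), 1.76 times wild type. rpl introns thus began with more intron reads per host read, a count not scaled to the length of intron or host. They are also the longer, with a median of 81 bases against 56 over all introns. The strains did not overlap in either group (exact permutation p = 0.33, the smallest possible).

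rpl1202, for uL11, had the largest change but few reads. Its intron had 20 and 9 reads in wild type, against 48 and 42 in the mutant, or 2.34 and 0.97 against 8.09 and 6.35 per 1000 host reads. The strains did not overlap, but 57.5% of the row's windows are shared with rpl1201. The log2 change was 2.13 ± 0.31 (edgeR adjusted p = 3.38e-06), 2.86 without wild-type library 1 and 1.61 without wild-type library 2.

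rpl701, for uL30, has the longest rpl intron, which holds the small nucleolar RNA row SPSNORNA.24. It had 3.74 and 3.48 intron reads for every 1000 host reads in wild type, against 13.1 and 13.1 in the mutant, a log2 change of 1.86 ± 0.07 (edgeR adjusted p = 9.07e-18). Reads from the small RNA and from the retained intron cannot be told apart here. Its paralog rpl702, with an intron of 291 bases and no such row, went from 6.93 and 6.53 to 15.2 and 14.5 per 1000 host reads (1.14).

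The uL23 genes behaved in a similar way. The rpl2501 intron went from 10.1 and 9.33 to 32.4 and 32.0 reads per 1000 host reads (1.73 ± 0.07, edgeR adjusted p = 4.53e-17) and that of rpl2502 from 13.6 and 12.2 to 27.1 and 24.9 (1.01). In neither gene did the strains overlap. rpl3001, for eL30, had a short intron of 59 bases that went from 4.88 and 4.05 to 10.7 and 9.89 per 1000 host reads (1.20 ± 0.11). Its paralog rpl3002, whose intron is 246 bases long and ends in AAG, began at a higher level, 57.5 and 57.2, and rose to 84.6 and 96.4 (0.66).

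Relative to its host, the rpl39 intron had the most reads of the 40 in every library. It had 120 and 123 reads for every 1000 host reads in wild type, against 280 and 274 in the mutant (1.19 ± 0.04, edgeR adjusted p = 1.63e-18). That of rpl102 had 75.2 and 75.6 in wild type, against 126 and 132 in the mutant (0.77 ± 0.06, edgeR adjusted p = 1.81e-11), although its raw intron reads were 1036 and 1068 and then 878 and 1056. The non-coding row SPNCRNA.1578 overlaps this intron, and its reads cannot be told from those of rpl102. rpl2302, for uL14, was also among the 10 introns that rose most, from 18.0 and 16.9 to 35.2 and 34.4 per 1000 (0.997).

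At the other end, 17 introns did not pass. The rpl1602 intron had 7.63 and 7.53 reads for every 1000 host reads in wild type, against 6.61 and 7.09 in the mutant, a log2 change of -0.14 that did not pass. The introns of rpl1601 (-0.11), rpl31 (-0.02), rpl8 (-0.01) and rpl4301 (0.02) did not pass either. The rpl1602 and rpl1601 introns sit beside the rpl1603 intron in the uL13 trio shown above, and that one rose by 0.63 ± 0.25 (edgeR adjusted p = 0.0406) from 58 and 32 reads to 42 and 44 reads, against a host that fell. Per 1000 host reads it had 5.26 and 2.77 in wild type, against 6.55 and 5.87 in the mutant. Its log2 change was 1.15 without wild-type library 1. The call was lost without wild-type library 2 (0.23, edgeR adjusted p = 0.470), without mutant library 1 (adjusted p = 0.303), without mutant library 2 (0.207) and with DESeq2 (0.255).

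Longer introns rose more often, among rpl introns and among all introns. All 9 rpl introns of at least 200 bases rose, with a median log2 change of 0.997, while 6 of 9 from 100 to under 200 bases rose (0.23) and 8 of 22 under 100 bases rose (0.14). Over all introns 297 of 338, 507 of 731 and 1568 of 3969 rose in the same classes, with medians of 1.21, 0.95 and 0.75. Spearman's rho between length and change was 0.52 over the 40 rpl introns and 0.15 over 5038 introns, given as a description over introns of the same libraries. Longer introns also hold more reads, and the part of that in the calls was not tested. The 38 introns of rps genes had a median of 0.35, with 24 that rose and 0 that fell.

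**Figure D4:**
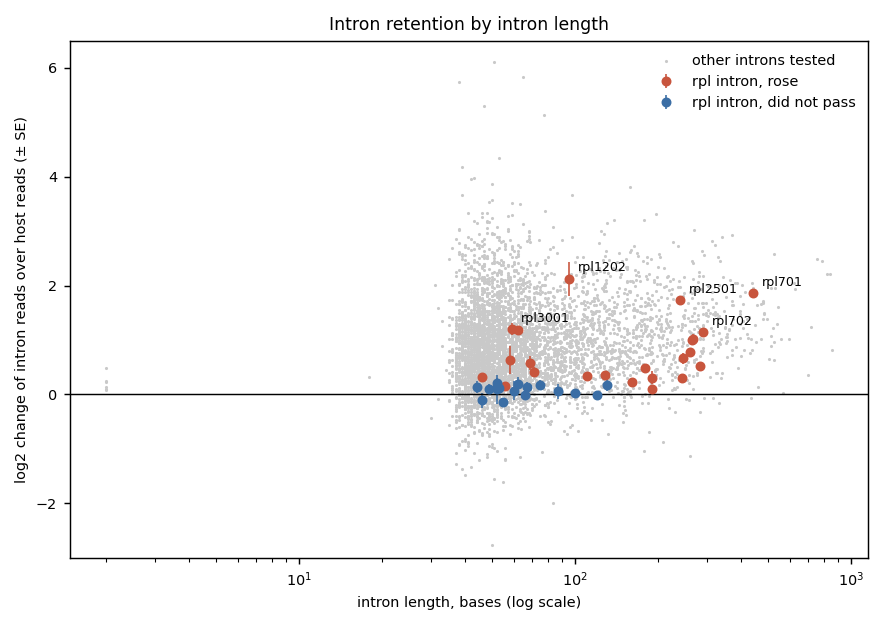
Log2 change of intron reads over host reads (vertical axis, ± SE from edgeR) against intron length in bases (log scale) for the 40 rpl introns, red where the rise passed the test and blue where it did not, over the other introns tested in grey. The 9 rpl introns of at least 200 bases are all red with a median of 0.997, and most blue points lie under 100 bases and near 0.

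The same introns had a second readout, the reads that cross from exon to exon over a spliced intron. Of 38 rpl junctions tested, 5 fell and 1 rose, while 32 did not pass. Their median log2 change was -0.03. Over all junctions tested, 19.8% fell and 0.658% rose, with a median of -0.15. The introns of rpl8 and rpl1802 had 0 exon-exon reads in every library. In both, the deposited row begins at the start codon, leaving 3 exon bases before the intron.

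rpl39 stood apart from the rest. Its exon-exon reads went from 5831 and 5991 in wild type to 2063 and 2138 in the mutant, and its intron reads from 3008 and 3175 to 5256 and 6060. Intron reads were thus fewer than junction reads in both wild-type libraries and more in both mutant libraries. The log2 change of junction reads over host reads was -1.18 ± 0.04 (edgeR adjusted p = 1.03e-40).

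The other large loss was in rpl1603, from 539 and 555 exon-exon reads to 153 and 167 (-1.07 ± 0.09, edgeR adjusted p = 6.80e-17). Per 1000 host reads the junctions of its paralogs did not pass the test, at -0.002 (rpl1601) and -0.01 (rpl1602), and within the uL13 trio junction reads fell in the gene whose 5′ splice site reads GTATTA, where the others read GTATGT and GTAAGA. The row of rpl1603 reaches over the neighbouring gene SPBC2G2.06c, whose reads it may share. The difference between the paralogs was not itself tested.

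Smaller losses were seen in rpl1202 (308 and 340 to 161 and 215 reads, -0.28), rpl102 (1297 and 1392 to 575 and 637, -0.25) and rpl702 (4272 and 4638 to 2887 and 3285, -0.11). With DESeq2 2 junctions fell, those of rpl39 and rpl1603, and the calls of rpl1202 (adjusted p = 0.467), rpl102 (0.0723) and rpl702 (0.235) were lost. The rpl1202 call was also lost in edgeR fits without wild-type library 1 (adjusted p = 0.136), wild-type library 2 (0.188) or mutant library 1 (0.357). The rpl702 call was lost without wild-type library 1 (0.0944), wild-type library 2 (0.192) or mutant library 2 (0.0981). Each of the 5 introns whose junction reads fell also rose in retention, with the limits given above for rpl1603. The junction that rose was that of rpl3801 intron 1, directly after the start codon of eL38, from 23.1 and 27.8 to 28.8 and 33.4 exon-exon reads per 1000 host reads (0.29). Its edgeR adjusted p was 0.00639, against 0.335 with DESeq2, 0.315 without wild-type library 1 and 0.273 without mutant library 2, and its row overlaps SPBC577.03c.

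**Figure D5:**
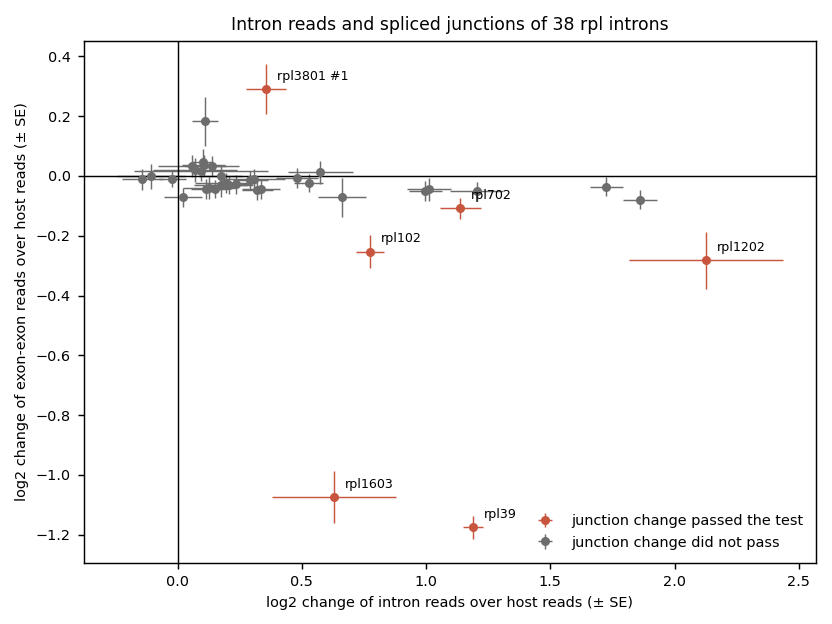
Log2 change of exon-exon reads (vertical axis) against that of intron reads (horizontal axis), both over host reads with ± SE from edgeR, for the 38 rpl introns with tested junctions, red where the junction change passed the test. rpl39 and rpl1603 lie near -1.2 and -1.1 on the vertical axis, while the 32 grey points lie between -0.08 and 0.18.

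Exon-intron boundary reads, another count deposited for each intron, gave a different picture. For rpl3001 they numbered 7618 in wild-type library 1, where the intron row held 182 reads and the exon-exon junction 7649, and how they were counted is not given in the sources used here. With boundary reads in place of intron reads, 17 rpl introns rose, 0 fell and the median was 0.07. The calls of rpl3001 (0.04), rpl102 (0.07), rpl2302 (-4.83e-05) and rpl3002 (-0.08) were lost, and rpl1601 (0.62) and rpl1602 (1.70) rose. Both rises rest on few boundary reads. rpl1602 had 8 and 12 in wild type, against 25 and 28 in the mutant. rpl1601 had 40 and 38 in wild type, against 47 and 44 in the mutant.

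The acidic stalk proteins, which extend from uL11 and recruit elongation factors, fell with the rpl genes. Of 7 genes 7 fell, with a median log2 change of -0.53, beside 38.5% lower and 39.6% higher over all gene rows tested. rpp0, which anchors the stalk, went from 2480 ± 78.4 to 1712 ± 27.6 CPM (SD, n = 2). The P1 genes were at -0.37 (rpp101), -0.54 (rpp102) and -0.54 (rpp103) and the P2 genes at -0.38 (rpp201), -0.16 (rpp202) and -0.67 (rpp203).

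Of 46 named factors that assemble the large subunit, 40 were matched, with a median of -0.48. Beside 38.5% lower and 39.6% higher over all gene rows tested, 36 of these factors fell and 4 rose. Those that fell most were has1, an RNA helicase (281 ± 0.285 to 162 ± 2.40 CPM, -0.79), mrt4, which holds the place of the stalk protein (-0.76), and nip7 (-0.69). Those that rose most were drs1, another helicase (348 ± 4.72 to 514 ± 1.56 CPM, 0.56), nog2, a GTPase (0.34), and mdn1, the large AAA ATPase that strips factors from the particle (0.34). Of 4 named chaperones of single ribosomal proteins, 3 were matched and fell: rrb1, the uL3 chaperone (-0.68), acl4, the uL4 chaperone (-0.25), and sqt1, the uL16 chaperone (-0.17). These roles are known from budding yeast.

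Of 4 regulators of ribosomal protein genes, ifh1 (-0.23) and fhl1 (-0.13) fell, and rrn7 (0.10) and sfp1 (0.99) rose. Rrn7 binds the HomolD box in fission yeast, while the roles of the other 3 are known from budding yeast. sfp1 went from 1053 and 1044 reads to 1850 and 2292. Of 7 elongation factor genes 5 fell, namely tef3 (-0.27), tef102 (-0.22), tef101 (-0.17), tef5 (-0.15) and tef103 (-0.11), while eft202 (-0.004) and eft201 (0.06) did not pass. The median of the 7 was -0.15. Of 14 genes of TORC1 and its targets, the nutrient-sensing kinase pathway upstream of ribosome synthesis, 3 fell (psk1 at -0.23, wat1 at -0.20, sck1 at -0.11), 6 rose (maf1 at 0.53, toc1 and gtr1 at 0.21 furthest) and for 5 the change missed the threshold. The median was 0.0004. The toc1 row overlaps that of rpl35A02. The counts of stalk proteins, assembly factors, chaperones, regulators, elongation factors and TORC1 genes stand beside 38.5% lower and 39.6% higher over all gene rows tested. Whether they differ from those shares was not tested.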

How the data were processed

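The deposited table gave, per the file headers, whole-number read counts for each gene row, intron row and exon-intron boundary in each first-read library, and the authors' log2 splicing efficiency of each intron. Exon-exon counts were recovered from that log2 efficiency and were whole within 0.001 for all 5361 introns in each library. Per the submitters' processing notes, the tools used included Bowtie 0.12.7 and CASAVA 1.8.2. Not given in the sources used here were the genome build, the annotation, the counting method and whether it used the strand that the kit keeps, so overlapping rows are uncertain. The 4 second-read samples of 8 in the labels were not analysed here, and 4 other per-sample columns were not used.

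Gene counts were filtered with filterByExpr, scaled by TMM and tested with edgeR 4.0.16 (quasi-likelihood) in R 4.3.3, with Benjamini-Hochberg adjustment over all rows and a threshold of 0.05. Intron and exon-exon counts were tested in the same way with an offset of the log of host reads plus 1, where the intron's reads summed to 10 or more and the host had 50 or more in each library. Log2 changes, CPM and ratios were computed here from the deposited counts. Single values were compared by exact two-sided permutation (scipy 1.17.1), and identities and shared 50-base windows came from Biopython 1.88 and Python 3.11.15. Sequences were read from RefSeq ASM294v3, which matched the deposited coordinates (5287 of 5361 introns begin GT and end AG), and 6844 gene identifiers were matched to it.

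Replicate numbers did not pair the samples (correlation of deviations -0.034 over 5916 genes). The common coefficient of variation that edgeR estimated between libraries of a strain, beyond counting noise and shared by all gene rows, was 1.49%. On simulated counts the gene test recovered 88% at 1.25-fold and 95% at 1.5-fold, of 100 genes each among 6536, the intron test 19% at 1.5-fold and 53% at 2-fold among 5038, and the junction test 65% and 94% at those folds among 4861.

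The genes named were the 10 lowest and 10 highest changes, the 5 highest levels, the 6 pairs that moved most and the 3 that moved least, the introns with the 10 highest and 5 lowest changes, and, from each other list, the 3 furthest in each direction or every member of lists of 8 or fewer. Genes named for their role in the ribosome came from a fixed list of roles, and the rpl1603 intron was named after its values were seen, for its paralogs. The members and lists were chosen with earlier results of these data known. Alternatives were DESeq2 1.42.0, other scalings, filters and denominators, subsets of rows, each library left out, and a replicate block.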

Additional observations from a re-analysis of the deposited data

How the results depend on the processing

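All 76 rpl genes fell with DESeq2, with library totals or TMM without ribosomal protein genes as scaling, with no filter, and with each library left out. Their median log2 change was -0.34 with library totals, where the median of all rows was 0.09 in place of 0.01, and between -0.45 and -0.40 with a library left out. Among the 49 rows that overlap no other, 49 fell. Rising introns numbered 16 to 24 with a library left out and 18 with DESeq2 or relative to exon-exon reads, 16 of 30 where no gene row but the host overlaps (median 0.17 in place of 0.26), and 20 where at least 10 coding bases lay before the intron, a subset chosen after the data were seen. With boundary reads the median was 0.0744, and the signs of rpl2302 (-4.83e-05), rpl3002 (-0.0815), rpl1601 (0.62) and rpl1602 (1.70) turned. The boundary reads of rpl1601 and rpl1602 were few, as given above. The cause of the turned signs was not tested. Summed rpl intron reads per 1000 host reads rose by 7.47 to 8.05 with a library left out and by 4.44 without rpl39, a choice made after the data were seen. Junctions that fell numbered 2 with DESeq2 and 3 to 5 with a library left out, and junctions that rose 0 with DESeq2 and 0 to 2 with a library left out. The difference between genes with and without introns ran from -0.0016 to 0.0147 with a library left out and was -0.0287 as a difference of medians. The share of rpl reads fell by 1.44 to 1.58 percentage points, and the pairs' median shift was 0.0962 to 0.130.

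With a replicate block, 76 genes fell with a median of -0.42, 23 introns rose, 4 junctions fell and 1 rose, and the rpl702 junction lost its call (edgeR adjusted p = 0.0736). The replicate numbers share only a number, so this is not a paired design. Intron counts were the shallowest readout, and most 1.5-fold changes simulated in introns drawn from all those tested were missed. Recovery among the rpl introns alone was not simulated. The SE of their log2 changes ran from 0.04 (rpl39) to 0.31 (rpl1202). The 2 libraries of a strain were grown together, so differences between cultures were not measured.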
